A study of Homo sapiens with 6 samples.

Results

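Laminin chains and hemidesmosome proteins were represented by 9 genes of the 20014 in the deposited table, matched by Ensembl identifier to their symbols. The 5 laminin chains were LAMA3 and LAMB3, both of laminin-332, LAMA5 of laminin-511, and LAMB1 and LAMC1, shared by laminin-511 and laminin-111. The 4 hemidesmosome genes were COL17A1, CD151, DST and PLEC. All 9 passed the filter of a mean of at least 1 FPKM (fragments per unit of transcript length and of sequencing depth) over the 6 libraries, as did 11262 genes in all. The libraries were made from poly(A)-selected RNA of HaCaT cells, an immortalized human keratinocyte line, grown with no further treatment. The knockout group (3 libraries) carried lentiviral CRISPR with a guide against STUB1, a chaperone-linked ubiquitin ligase, and the control group (3 libraries, labelled WT) carried the same vector with a control guide. Cells were sorted into plates, and the colonies that grew were screened for STUB1 protein on immunoblots. How many clones or cultures stand behind the libraries of a group is not given in the sources used here. The p-values below therefore reflect the spread among 3 libraries a group, and that spread may be technical. In bulk RNA, fewer cells of a kind and less RNA per cell cannot be told apart.

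A laminin is a secreted trimer of an alpha, a beta and a gamma chain that polymerizes in, or anchors cells to, the basement membrane. Laminin-332 is the main laminin under the epidermis and the ligand of the integrins of the hemidesmosome, the junction that ties the keratin cytoskeleton of basal keratinocytes to that membrane. Inside the cell plectin (PLEC) and the epithelial product of DST, BPAG1e, link keratins to the integrin and to collagen XVII (COL17A1), and the tetraspanin CD151 associates with laminin-binding integrins. Inherited loss of LAMA3, LAMB3, COL17A1, PLEC or the epithelial product of DST causes skin blistering in people.

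The targeted gene, STUB1, stood lower in the knockout, at 21.6, 24.7 and 23.2 FPKM, against 37.8, 41.9 and 52.7 FPKM in controls 1, 2 and 3. Control 3 stood apart from the other libraries, with Pearson's r across genes of 0.986 to 0.988 to controls 1 and 2, where all other pairs within a group reached 0.996 to 0.999. Gene levels in it, set against the average library, shifted by -0.104 log2 units for each doubling of exonic length, against -0.00939 to 0.0349 in the other 5. A trend with GC content divided the groups instead. For each 10 percentage points of GC the shift was 0.0118, 0.135 and 0.0383 log2 units in knockouts 1, 2 and 3. In controls 1, 2 and 3 it was -0.1, -0.0369 and -0.0478, below every knockout library. Most genes described here have long transcripts. Values without control 3, and after a correction of every library for GC content and exonic length, therefore stand beside many results they move. Of 8 keratinocyte genes listed as identity markers, 6 passed the filter. KRT14 was not among them, at 0.162 to 0.284 FPKM in knockout libraries and 0.211 to 0.328 FPKM in controls, and neither was LY6D. The 10 fibroblast markers together summed to 0.447 to 0.568 FPKM in knockout libraries and 0.461 to 0.563 FPKM in controls, with DCN at 0 throughout. Of 7 melanocyte markers (6.48 to 7.66 against 6.77 to 7.41 FPKM in sum) only PMEL and MITF passed the filter and TYR was at 0. Of 8 leukocyte markers (23.0 to 25.7 against 21.6 to 22.8 FPKM) only CD68, a lysosomal protein, passed. Of 6 endothelial markers (1.89 to 2.03 against 2.07 to 3.03 FPKM) only CDH5 passed and KDR was at 0. Of these other cells' markers above the filter, none changed (limma, Benjamini-Hochberg) with all libraries. CDH5 was lower in the knockout without control 3 (log2 fold change -0.38, adjusted p = 0.000786) and after the GC and length correction (-0.38, adjusted p = 0.00519). The markers' part in the results was not tested.

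Of the 9 genes, 4 rose in the STUB1 knockout, LAMA5, COL17A1, LAMA3 and LAMB3, none fell, and 5 did not pass (limma on log2(FPKM + 1), Benjamini-Hochberg adjusted p under 0.05 over all tested genes). Among all tested genes 22.9% changed, and 9.58% were higher. The median log2 fold change was 0.37 over the 9 genes and -0.01 over all tested genes. After the GC and length correction the median over the 9 genes was 0.24, and with control 3 left out as well it was 0.19. The median over all tested genes was 0.01 in each of these fits. In 6 of the 9, LAMA5, COL17A1, LAMA3, LAMB3, PLEC and LAMB1, the lowest knockout library lay above the highest control library, which was so for 20.4% of all tested genes. The genes were chosen with earlier results of these libraries known, so these counts describe them and support nothing further. When the replicate number was added as a block, 6 rose, PLEC (adjusted p = 0.0133) and CD151 (adjusted p = 0.0464) joining the 4, while 12.1% of all tested genes were higher in that fit. With the GC and length correction added to the block, PLEC and CD151 did not pass (adjusted p = 0.201 and 0.167).

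**Figure D1:**
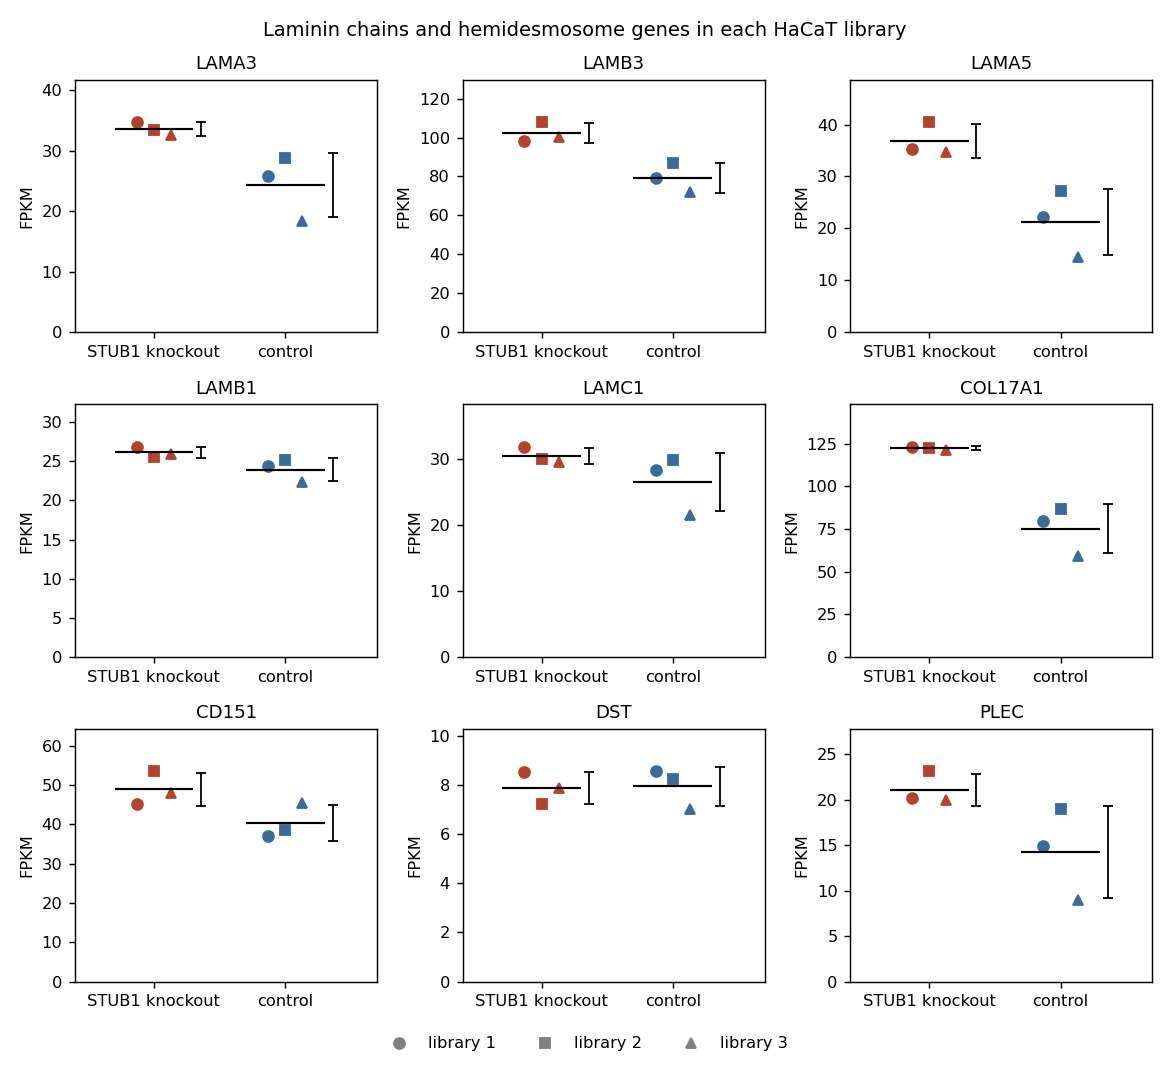
FPKM of each of the 9 genes (vertical axis, from 0) in the 3 STUB1 knockout libraries (left, red) and the 3 control libraries (right, blue). Marker shapes give the library number, horizontal lines the group mean and error bars the SD (n = 3). Control 3 (blue triangle) is the lowest control in every panel except that of CD151, and the knockout libraries of COL17A1 lie within 121 to 123 FPKM.

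The alpha chain of laminin-332, LAMA3 (ENSG00000053747; chromosome 18, 23689443 to 23956222, GRCh38, plus strand), carries the globular domains that integrins bind. It measured 34.8, 33.4 and 32.5 FPKM in knockout libraries and 25.9, 28.7 and 18.4 FPKM in controls. The groups did not overlap, and control 3 was lowest at 67.2% of the mean of controls 1 and 2. The means were 33.6 ± 1.14 FPKM in the knockout and 24.3 ± 5.36 FPKM in the control (SD, n = 3 each), 1.38-fold higher, with a log2 fold change of 0.47 (SE 0.140; adjusted p = 0.0393 by limma with Benjamini-Hochberg adjustment). Without control 3 the log2 fold change was 0.29 (adjusted p = 0.00193), and after the GC and length correction it was 0.34 (adjusted p = 0.0167). The call was lost without knockout 1, 2 or 3 (adjusted p = 0.120, 0.148 and 0.0869) or control 1 (0.0545), without a filter on low values (0.0891) and with TPM scaling (0.0546).

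LAMB3, the beta chain that pairs with LAMA3 in laminin-332 (ENSG00000196878; chromosome 1, 209614870 to 209652466, minus strand), was the more abundant of the pair per length of transcript. It measured 98.2, 108 and 100.2 FPKM in knockout libraries and 79.1, 86.9 and 71.8 FPKM in controls. The lowest knockout library stood above the highest control, and control 3 was again lowest. The means were 102 ± 5.22 FPKM in the knockout and 79.2 ± 7.53 FPKM in the control (SD, n = 3 each), 1.29-fold higher, with a log2 fold change of 0.37 (SE 0.0871; adjusted p = 0.0179, limma with Benjamini-Hochberg). It was 0.30 without control 3 (adjusted p = 0.00121). Correcting for GC content and length gave 0.24 (adjusted p = 0.0157). Leaving out knockout 1, 2 or 3 or control 1 ended the call (adjusted p = 0.0503, 0.0889, 0.0652 and 0.0536).

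The ratio of LAMA3 to LAMB3 FPKM within a library was 0.354, 0.309 and 0.325 in the knockout and 0.328, 0.331 and 0.256 in the control, so the groups overlapped. The difference between the groups in log2(FPKM + 1) of LAMA3 minus that of LAMB3 was 0.11 (exact two-sided permutation test, p = 0.6, and 0.6 adjusted over 7 pairs).

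LAMA5, the alpha chain of laminin-511 (ENSG00000130702; chromosome 20, 62307955 to 62367312, minus strand), a laminin of many epithelial basement membranes, had the largest uncorrected fold change of the 9, though COL17A1 was above it once both were corrected for GC content and length (0.57 against 0.50 on the log2 scale), also without control 3 (0.47 against 0.31). It measured 35.2, 40.5 and 34.7 FPKM in knockout libraries and 22.1, 27.1 and 14.6 FPKM in controls. The groups did not overlap, yet the controls themselves spread widely, with control 3 at 59.3% of the mean of controls 1 and 2. The means were 36.8 ± 3.23 FPKM in the knockout and 21.3 ± 6.31 FPKM in the control (SD, n = 3 each), 1.73-fold higher, with a log2 fold change of 0.80 (SE 0.183; adjusted p = 0.0148, limma with Benjamini-Hochberg). That put LAMA5 at the 99.5 percentile of fold changes among tested genes. The log2 fold change was 0.57 without control 3, 0.50 after the GC and length correction (adjusted p = 0.0405) and 0.31 with both (adjusted p = 0.000341). Without knockout 2, its highest library, the call was lost (adjusted p = 0.102). In GENCODE 29, LAMA5 shares 244 exonic bases, 1.71% of its exonic length, with ADRM1 on the opposite strand, and ADRM1 itself had a log2 fold change of 0.01 (adjusted p = 0.973).

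The beta and gamma chains that join LAMA5 in laminin-511 did not pass. LAMB1 (ENSG00000091136; chromosome 7, 107923799 to 108003255, minus strand) measured 26.9, 25.6 and 25.95 FPKM in knockout libraries and 24.4, 25.1 and 22.3 FPKM in controls. All knockout values exceeded all control values by a narrow margin, and the log2 fold change was 0.12 (95% interval -0.04 to 0.29; limma, Benjamini-Hochberg adjusted p = 0.242). It was 0.07 without control 3 and 0.06 after the GC and length correction. LAMB1 shares 70 exonic bases, 0.86% of its exonic length, with DLD on the opposite strand, which fell (log2 fold change -0.30, adjusted p = 0.0219). LAMC1 (ENSG00000135862; chromosome 1, 183023460 to 183145592, plus strand) measured 31.8, 29.9 and 29.4 FPKM in knockout libraries and 28.2, 29.7 and 21.5 FPKM in controls. The groups overlapped, and the log2 fold change was 0.20 (95% interval -0.05 to 0.46; adjusted p = 0.220), or 0.07 without control 3 (adjusted p = 0.412). These intervals are not adjusted for the number of genes.

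Within a library, LAMA5 stood at 1.11, 1.35 and 1.18 times the FPKM of LAMC1 in the knockout and at 0.783, 0.911 and 0.677 times in the control. The FPKM of LAMA5 was thus above that of LAMC1 in all 3 knockout libraries and below it in all 3 controls. FPKM depends on the gene length used, so a ratio of 1 does not mark equal numbers of transcripts or chains. The difference between the groups in log2(FPKM + 1) of LAMA5 minus that of LAMC1 was 0.60, or 0.50 without control 3. It was 0.36 once GC content and length were corrected for, and 0.24 with control 3 left out as well. LAMB1 to LAMC1 ratios were 0.845, 0.855 and 0.882 in the knockout and 0.864, 0.845 and 1.04 in the control, and overlapped. LAMA3 to LAMA5 ratios were lower in the knockout, at 0.988, 0.825 and 0.938, against 1.17, 1.06 and 1.26 in the control. LAMB3 to LAMB1 ratios were higher in the knockout, at 3.65, 4.22 and 3.86, against 3.24, 3.46 and 3.22 in the control. With the correction and without control 3, the log2 difference between the groups was -0.06 for LAMA3 with LAMA5, against -0.33 uncorrected, and 0.12 for LAMB3 with LAMB1, against 0.24 uncorrected. The uncorrected log2(FPKM + 1) differences of LAMA3 with LAMA5, LAMB3 with LAMB1 and LAMA5 with LAMC1 each gave p = 0.1 in the exact two-sided permutation test. That is the smallest p that 3 against 3 libraries allow, and it was 0.14 after Benjamini-Hochberg adjustment over 7 pairs.

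**Figure D2:**
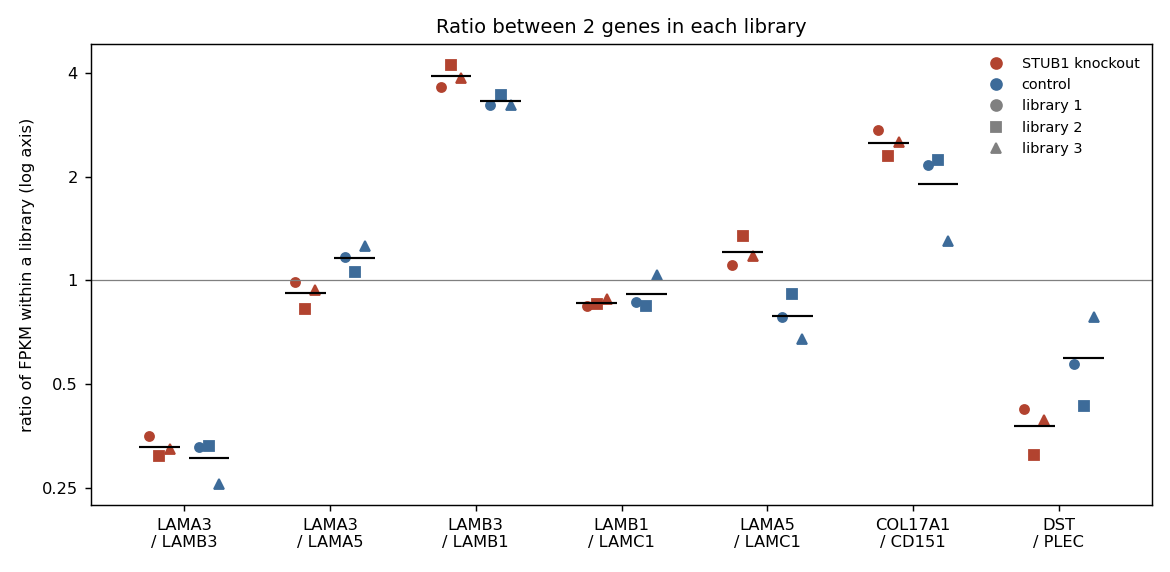
Ratio of the FPKM of the first gene to that of the second within each library, on a log axis, for 7 pairs, with STUB1 knockout libraries in red on the left and control libraries in blue on the right. Horizontal lines are group means. LAMA5 / LAMC1 lies above 1 in the 3 knockout libraries and below 1 in the 3 control libraries, while LAMA3 / LAMB3 and LAMB1 / LAMC1 overlap between the groups.

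COL17A1, the transmembrane collagen XVII of the hemidesmosome (ENSG00000065618; chromosome 10, 104031286 to 104085957, minus strand), rose with the smallest relative spread among knockout libraries. It measured 123, 123 and 121 FPKM in knockout libraries and 79.6, 86.5 and 59.0 FPKM in controls. The knockout libraries were nearly equal, and the highest control lay well below them. The means were 122 ± 1.18 FPKM in the knockout and 75.05 ± 14.3 FPKM in the control (SD, n = 3 each), 1.63-fold higher, with a log2 fold change of 0.72 (SE 0.127; adjusted p = 0.00479, limma with Benjamini-Hochberg). COL17A1 passed under each of the 15 alternative settings. Its log2 fold change was 0.55 without control 3, 0.57 once corrected for GC content and length, and 0.47 under both changes.

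CD151 (ENSG00000177697; chromosome 11, 832843 to 839831, plus strand) had the shortest transcripts of the 9. It measured 45.2, 53.5 and 48.1 FPKM in knockout libraries and 36.9, 38.6 and 45.4 FPKM in controls. Here control 3 was the highest control, at 120.2% of the mean of controls 1 and 2, and it lay above knockout 1. The log2 fold change was 0.27 (95% interval 0.05 to 0.495, not adjusted; limma, Benjamini-Hochberg adjusted p = 0.0715). CD151 passed without control 3, with a log2 fold change of 0.36 (adjusted p = 0.000629), but had 0.14 after the GC and length correction (adjusted p = 0.163). CD151 shares 257 exonic bases, 6.53% of its exonic length, with POLR2L on the opposite strand. POLR2L, an RNA polymerase subunit, had 73.7, 85.9 and 75.0 FPKM in knockout libraries and 57.0, 64.9 and 84.2 FPKM in controls (adjusted p = 0.299). COL17A1 to CD151 ratios were 2.73, 2.29 and 2.52 in the knockout and 2.16, 2.24 and 1.30 in the control. The difference on the log2(FPKM + 1) scale was 0.44 (exact two-sided permutation test, p = 0.1, and 0.14 adjusted over the 7 pairs). It was 0.19 without control 3, 0.43 once GC content and length were corrected for, and 0.26 with both.

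Neither plakin of the set, PLEC or DST, passed. PLEC (ENSG00000178209; chromosome 8, 143915147 to 143976734, minus strand) measured 20.1, 23.1 and 19.9 FPKM in knockout libraries and 14.9, 19.0 and 8.95 FPKM in controls. The groups did not overlap, but control 3 had only 52.7% of the mean of controls 1 and 2, the lowest such value of the 9. The log2 fold change was 0.58 (SE 0.2105; adjusted p = 0.0744, limma with Benjamini-Hochberg), so PLEC did not pass. It passed without control 2 (log2 fold change 0.81, adjusted p = 0.00851) and without control 3 (0.30, adjusted p = 0.0125). After the GC and length correction it was 0.27 (adjusted p = 0.308), and with control 3 left out as well it was 0.03 (adjusted p = 0.666).

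DST (ENSG00000151914; chromosome 6, 56457987 to 56954628, minus strand) measured 8.53, 7.22 and 7.87 FPKM in knockout libraries and 8.56, 8.22 and 7.03 FPKM in controls. The libraries of both groups were interleaved, with means of 7.87 ± 0.657 FPKM in the knockout and 7.94 ± 0.804 FPKM in the control (SD, n = 3 each). The log2 fold change was -0.01 (95% interval -0.22 to 0.20; limma, Benjamini-Hochberg adjusted p = 0.953). DST makes epithelial, neuronal and muscle products from separate starts, and the table gives 1 value for all of them, over 42341 exonic bases in GENCODE 29. A change limited to the epithelial product could not be read from it. DST to PLEC ratios were 0.424, 0.312 and 0.395 in the knockout, each below the 0.573, 0.433 and 0.786 in the control. The difference on the log2(FPKM + 1) scale was -0.59 (exact two-sided permutation test, p = 0.1, and 0.14 adjusted over the 7 pairs), or -0.39 without control 3. It was -0.33 once GC content and length were corrected for, and -0.08 with both.

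**Figure D3:**
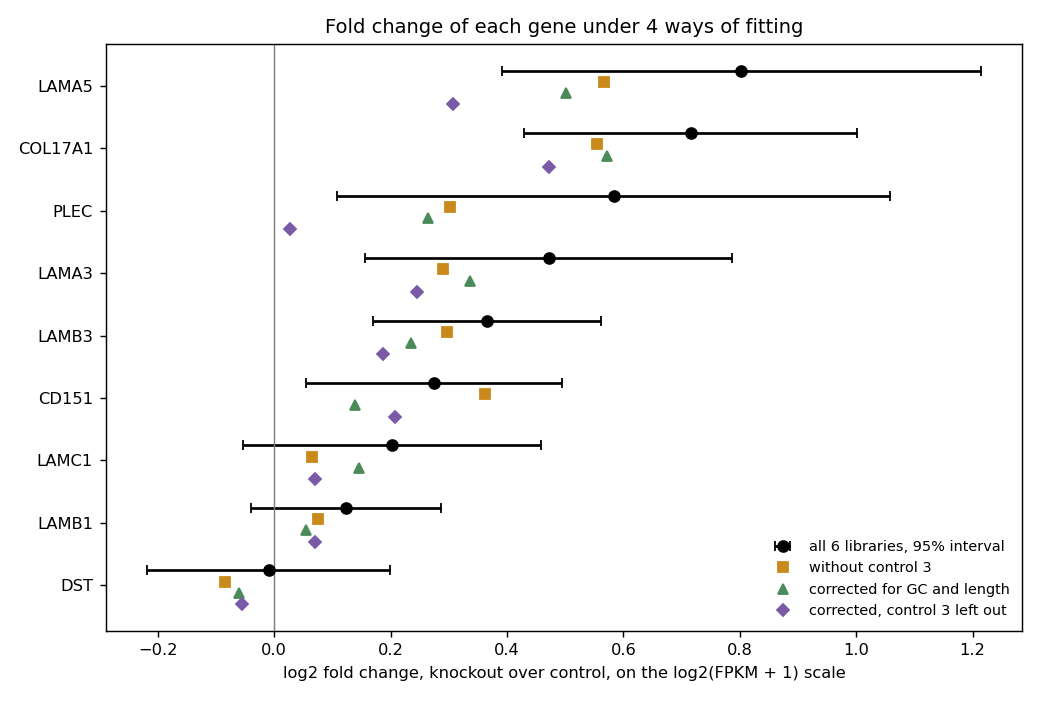
Log2 fold change of each gene, STUB1 knockout over control, on the log2(FPKM + 1) scale. Black points use all 6 libraries, with bars for the 95% interval from limma. Coloured points leave out control 3, correct each library for GC content and exonic length, or do both. COL17A1 stays between 0.47 and 0.72 in all 4, while PLEC ranges from 0.03 to 0.58.

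Without control 3 the fold changes of 8 of the 9 genes were lower and that of CD151 was higher. Control 3 stood below the mean of controls 1 and 2 for these 8, from 52.7% (PLEC) to 90.05% (LAMB1). The longest transcripts annotated were 15249 bases for PLEC, 11426 for LAMA5, 10661 for LAMA3, 7889 for LAMC1, 5766 for LAMB1, 5689 for COL17A1, 4305 for LAMB3 and 1857 for CD151. DST, with 22431 bases, was at 83.8%. GC content of those transcripts was highest in PLEC (67.0%) and LAMA5 (66.4%) and lowest in DST (41.3%). The part of length and GC content in these results was not tested beyond the correction and the values without control 3.

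**Figure D4:**
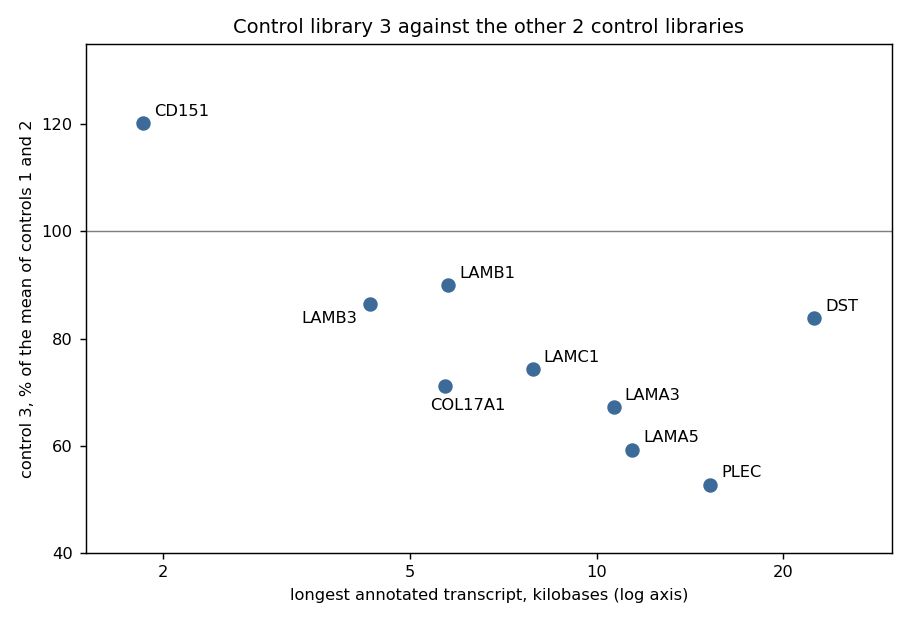
Level in control 3 as a percentage of the mean of controls 1 and 2 (vertical axis) against the longest annotated transcript in kilobases (log axis), 1 point per gene. The horizontal line marks 100%. CD151, with the shortest transcript, is at 120.2%, and PLEC is lowest at 52.7%.

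Upstream sequence was available for 7 of the 9 genes, in 11 windows of 250 bases that end just before a start annotated by RefSeq on GRCh38.p14. The 4 windows below belong to the genes that rose. AP-1, a factor of wounded and stressed epithelium, is represented by the letters TGANTCA, and the GC box, bound by SP1, by GGGCGG. NF-kB, named in the series title, is represented by GGGNNNNNCC, and TATAAA is the core of the TATA box. All were searched on both strands, and GC box and NF-kB letters can overlap. AP-1 letters are in capitals for LAMA3 and LAMB3, GC boxes (either strand) for LAMA5 and TATAAA for COL17A1.
LAMA3, chr18:23872770-23873019, plus strand: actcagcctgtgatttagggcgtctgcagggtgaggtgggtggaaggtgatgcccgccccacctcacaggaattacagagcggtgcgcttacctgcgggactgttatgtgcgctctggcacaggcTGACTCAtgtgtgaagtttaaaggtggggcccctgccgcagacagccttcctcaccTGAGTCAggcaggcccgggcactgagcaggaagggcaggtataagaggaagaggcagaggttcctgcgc
LAMB3, start 3 of 3, chr1:209651375-209651624, minus strand: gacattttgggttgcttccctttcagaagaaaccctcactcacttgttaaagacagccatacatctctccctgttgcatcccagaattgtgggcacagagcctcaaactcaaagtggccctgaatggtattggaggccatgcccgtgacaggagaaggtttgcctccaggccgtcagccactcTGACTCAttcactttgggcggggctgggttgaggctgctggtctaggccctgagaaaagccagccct
LAMA5, chr20:62367313-62367562, minus strand: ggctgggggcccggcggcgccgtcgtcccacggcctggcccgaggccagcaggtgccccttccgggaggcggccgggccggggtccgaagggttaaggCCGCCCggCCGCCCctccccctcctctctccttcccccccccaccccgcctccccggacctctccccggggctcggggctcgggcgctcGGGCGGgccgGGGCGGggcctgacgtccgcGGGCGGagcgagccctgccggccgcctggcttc
COL17A1, chr10:104085881-104086130, minus strand: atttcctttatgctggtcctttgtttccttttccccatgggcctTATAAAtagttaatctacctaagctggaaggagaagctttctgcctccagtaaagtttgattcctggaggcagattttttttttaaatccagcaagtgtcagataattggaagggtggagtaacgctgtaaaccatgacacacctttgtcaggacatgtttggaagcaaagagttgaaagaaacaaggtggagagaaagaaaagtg

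The LAMA3 window and the LAMB3 window shown lie inside their genes as GENCODE draws them, downstream of each gene's first annotated base. FPKM does not separate transcripts by their start. The LAMA3 window held 2 AP-1 matches, whose first bases lay 125 and 69 bases before the start. The LAMB3 window shown held 1, at 67 bases before its start, and the other 2 LAMB3 windows held none. No AP-1 match was found in the windows of LAMA5, COL17A1, LAMB1, LAMC1 or DST, while 6.57% of all 35116 RefSeq windows of this length hold one. The LAMA5 window was 82.8% G or C with 5 GC boxes, which 42.6% of all windows hold at least once. Genes that did not pass were alike: DST start 1 was 82.8% G or C with 4 GC boxes, LAMC1 79.6% with 3 and LAMB1 70.4% with 4. The LAMA3 window and each LAMB3 window held 1, and the windows of DST starts 2 and 3 held none. The COL17A1 window was 40.4% G or C with no GC box and no NF-kB match, and its TATAAA, found in 10.7% of all windows, began 206 bases before the start. NF-kB letters occurred in 54.4% of all windows, 2 times in the LAMA3 window, 2 times in that of LAMA5 and 1 time in the LAMB3 window shown. The other LAMB3 windows, which overlap each other, held 7 and 6. Among genes that did not pass, the LAMB1 window held 6 NF-kB matches and that of LAMC1 held 2. The window of DST start 1 held 2, and those of DST starts 2 and 3 held none. A match is a string of letters and says nothing of binding, and no match says nothing of its absence.

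Tested neighbours within 10 Mb of each gene had median log2 fold changes between -0.14 and 0.11. The median log2 fold change of 31 neighbours of LAMA3 was -0.09, with none higher and 3 lower, beside 0.47 for LAMA3 itself. For COL17A1 the 107 neighbours had a median of 0.00, with 5 higher and 10 lower. LAMB3 had 87 neighbours with a median of -0.04, and LAMA5 had 66 with a median of 0.02. The 73 neighbours of PLEC had a median of 0.11 with 17 higher and 3 lower, those of CD151 (89) 0.10 with 15 higher and 1 lower, and those of DST (29) -0.14 with none higher and 7 lower.

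The integrin subunits of the same adhesion sites did not pass with all libraries, but some passed once control 3 was left out or GC content and length were corrected for. ITGA6 and ITGB4, which form the laminin receptor of the hemidesmosome, averaged 78.2 ± 4.86 and 56.2 ± 4.66 FPKM in the knockout, against 79.6 ± 5.25 and 58.3 ± 13.2 FPKM in the control (SD, n = 3 each). Their log2 fold changes were -0.03 and -0.03 (limma, Benjamini-Hochberg adjusted p = 0.848 and 0.898). ITGA3, whose log2 fold change was -0.14, and ITGB1, with 0.05, form the laminin receptor outside hemidesmosomes (adjusted p = 0.380 and 0.690). Without control 3, ITGB4 had -0.21 (adjusted p = 0.0333) and ITGA3 -0.27 (adjusted p = 0.00484), both lower in the knockout. After the GC and length correction ITGA3 had -0.37 (adjusted p = 0.00429) and ITGB4 -0.25 (adjusted p = 0.168). With both changes ITGB4 had -0.40 (adjusted p = 4.56e-05), ITGA3 -0.43 (adjusted p = 1.17e-05) and ITGB1 0.12 (adjusted p = 0.0175), while ITGA6 had 0.01 (adjusted p = 0.767). Among other laminin chains, LAMB2, the beta chain of laminin-521, rose to 11.9 ± 0.319 FPKM in the knockout, against 6.47 ± 1.86 FPKM in the control (log2 fold change 0.82, adjusted p = 0.00697), 1.603-fold without control 3. The log2 fold change of LAMB2 was 0.63 after the GC and length correction (adjusted p = 0.00839) and 0.48 with both changes. NTN4, netrin-4, which binds laminin gamma chains, had 0.25 (adjusted p = 0.0939), and passed without control 3 (0.31, adjusted p = 0.0104) and after the GC and length correction (0.29, adjusted p = 0.0402). LAMA1, LAMA2, LAMA4, LAMB4 and LAMC3 were below the filter.

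Of 17 other basement membrane genes 10 were tested, of which 5 rose, 1 fell and 4 did not pass. Their uncorrected median log2 fold change was 0.40, beside -0.01 over all tested genes. Of all 11262 tested genes, 1079 (9.58%) rose and 1500 fell. COL7A1, the collagen of the anchoring fibrils under hemidesmosomes, rose 1.69-fold, and the heparan sulfate proteoglycan agrin (AGRN) rose 1.61-fold (limma, Benjamini-Hochberg adjusted p = 0.00125 and 0.00258). COL18A1 rose 1.41-fold (adjusted p = 0.00427), while NID2, a nidogen that links laminin to collagen IV, fell to 57.2% of control (adjusted p = 0.00384). Without control 3 the ratios of COL7A1, AGRN, COL18A1 and NID2 were 1.59, 1.51, 1.39 and 0.530. After the GC and length correction the log2 fold changes were 0.47 for COL7A1, against 0.74 uncorrected, and 0.39 for AGRN, against 0.68, both still past the threshold (adjusted p = 0.00108 and 0.00488). COL18A1 (0.14, adjusted p = 0.103) and COL4A2, another of the 5 that rose (0.15, adjusted p = 0.103), did not pass after it. The 4 that did not pass with all libraries were HSPG2, GRIP1, COL4A5 and COL4A6. HSPG2 (log2 fold change 0.57) passed without control 3 (0.29, adjusted p = 0.0101), but not after the correction (0.27, adjusted p = 0.265). After the correction GRIP1 passed as higher (0.24, adjusted p = 0.016) and COL4A5 as lower (-0.24, adjusted p = 0.0468). Of 12 enzymes that process laminins or collagen XVII, 6 were tested. BMP1, which cleaves laminin and procollagen chains, rose 1.54-fold, MMP14, a membrane-bound metalloproteinase, rose 1.34-fold, and PLAU, the urokinase plasminogen activator, fell to 61.3% of control (adjusted p = 0.00709, 0.00532 and 0.000427). The GC and length correction moved the log2 fold change of BMP1 from 0.59 to 0.38 and that of MMP14 from 0.42 to 0.30 (adjusted p = 0.00552 and 0.00243). That of PLAU was -0.70 with and without it. ADAM9, ADAM10 and ADAM17, which can shed collagen XVII, did not pass, but ADAM9 passed as higher after the GC and length correction (log2 fold change 0.21, adjusted p = 0.0122) and ADAM17 as lower without control 3 (-0.16, adjusted p = 0.0396).

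Among 6 other laminin receptors 5 were tested, and SDC4, a syndecan, rose 1.35-fold (limma, Benjamini-Hochberg adjusted p = 0.00285). None of the other 4 passed with all libraries and no correction. RPSA passed as higher without control 3 (log2 fold change 0.19, adjusted p = 0.00671). BCAM passed as lower after the GC and length correction (-0.32, adjusted p = 0.0102), and DAG1 as lower with both changes (-0.15, adjusted p = 0.00441). Of 15 tetraspanins related to CD151, 12 were tested. With all libraries and no correction 1500 of all 11262 tested genes fell. Of the tetraspanins none rose and 3 fell there, TSPAN6, TSPAN15 and TSPAN1, to 73.9%, 81.1% and 77.2% of control (adjusted p = 0.00723, 0.0177 and 0.0219). After the GC and length correction the log2 fold change of TSPAN6 was -0.22, against -0.41 uncorrected. Those of TSPAN15 and TSPAN1 were -0.31 and -0.31, against -0.28 and -0.36 uncorrected, and all 3 still passed as lower. All 3 were higher in control 3 than in the mean of controls 1 and 2, by contrast with the long genes above. Without control 3, TSPAN4 (log2 fold change 0.34, adjusted p = 0.0096), TSPAN31 (0.25, adjusted p = 0.0042) and CD63 (0.18, adjusted p = 0.0163) passed as higher. TSPAN9 passed as lower there (-0.20, adjusted p = 0.038) and after the GC and length correction (-0.32, adjusted p = 0.00719), where TSPAN4, TSPAN31 and CD63 did not pass. None of 4 tested plakins related to PLEC and DST passed (DSP, EVPL, PPL and MACF1; median log2 fold change 0.10). EVPL passed as lower without control 3 (-0.29, adjusted p = 0.0177), and with the correction as well PPL also did (-0.19, adjusted p = 0.00524). Of 4 keratins that hemidesmosomes can anchor, KRT5 rose 1.77-fold (adjusted p = 0.000267), KRT15 did not pass (-0.24, adjusted p = 0.0651) but was lower without control 3 (-0.18, adjusted p = 0.0364) and after the GC and length correction (-0.39, adjusted p = 0.0228), and KRT14 and KRT17 were below the filter. Over the 6 keratinocyte identity genes tested, KRT5 was the 1 that passed with all libraries and no correction. TP63, a regulator of basal keratinocytes, had a log2 fold change of 0.01 (adjusted p = 0.938). Without control 3, DSC3 (0.20, adjusted p = 0.0458), PKP1 (0.19, adjusted p = 0.0186) and SFN (0.23, adjusted p = 0.0166) also passed as higher. DSC3 (0.40, adjusted p = 0.00511) and DSG3 (0.32, adjusted p = 0.0344) did so after the GC and length correction.

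By the distance between profiles over the 6 libraries, on the log2 scale and centred on each gene's mean, the tested gene most like LAMA3 was FERMT1 (distance 0.0503), which encodes kindlin-1, an activator of integrins. It measured 54.6, 53.3 and 52.7 FPKM in knockout libraries and 42.2, 45.0 and 29.5 FPKM in controls. GPR107 (0.0580) and KREMEN1 (0.0703) followed. SFXN3, ARHGAP45 and MIGA2 were nearest to LAMB3 (0.0348, 0.0479 and 0.0493), and ALS2CL, ANK1 and C3, the complement component, to COL17A1 (0.0945, 0.107 and 0.109). In each of these 9 genes control 3 was the lowest library.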

How the data were processed

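The authors deposited 1 table of FPKM for 20014 Ensembl genes in 6 libraries, 1 column per library. Build GRCh38.p13, Cufflinks, edgeR 3.6.3, featureCounts 1.6.3, HISAT2 2.0.5 and Trimmomatic 0.36 are listed, without roles, per the submitters' processing notes. Neither strand setting nor annotation release is given there, so reads of genes that overlap on opposite strands cannot be told apart. FPKM values are not counts and were not given a count test. Steps in low values put libraries at 45500000 to 52350000 reads, but only 59.5% to 65.5% of low values lay within 0.15 of a whole read (genes of 300 to 2000 exonic bases), so reads were not recovered and counting error is unknown.

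Symbols came from an identifier table for 19991 genes and from GENCODE 29 for 23. GENCODE 29 gave coordinates, exonic length and the GC content of the longest transcript. Genes with a mean of at least 1 FPKM were fitted as log2(FPKM + 1), which understates changes of low genes, with limma 3.58.1 in R 4.3.3 (genotype as the sole term, intensity trend) and Benjamini-Hochberg adjustment at 0.05 over 11262 genes; the procedure was first tested on simulated data. The GC and length correction removed splines (4 degrees of freedom each) fitted in each library over 11177 genes. Pairs of genes were compared by exact permutation with scipy 1.17.1, on log2(FPKM + 1) of one gene minus that of the other.

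The genes and the context lists were chosen with earlier results of these data known. All 9 genes are named; of each list, those that passed, at most 4 by p, and the integrin subunits and other laminin chains whatever their values, except that 1 gene the rule takes is not reported here; further genes named from the lists, such as those that did not pass, were chosen after their values were seen. Replicate numbers are shared between the groups. Same-numbered libraries deviated together from their group means (r across genes of 0.375, 0.15 and 0.188, each over 0.1). By that rule the numbers count as pairing the libraries, although the labels name no common batch or day. Libraries of unlike number were not compared in this way, so the rule cannot show that the numbers pair them. The tests and intervals in the text are nevertheless unpaired, and the pairing enters only through the fits with the replicate block. Alternatives were a pseudocount of 0.1, no filter, TPM scaling, median centring, the replicate block, array weights, the correction with and without the block, and each library left out; the correction without control 3, and these settings for the pairs and context genes, were added after the data were seen.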

Additional observations from a re-analysis of the deposited data

How the results depend on the processing

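Leaving out 1 library moved the number of the 9 genes past the threshold to between 1 (without knockout 2) and 6 (without control 3), against 4 with all libraries, and the number of all tested genes past it to between 1030 (without knockout 2) and 4521 (without control 3), against 2579. Array weights gave 6437 genes and 6 of the 9, but the weights did not fully converge. The GC and length correction with control 3 left out, added after the data were seen, gave 5066 genes and 5 of the 9. Under no other alternative did either number move by more than 1.5 times: the 9 genes gave 3 without a filter, 3 with TPM scaling, 4 with a pseudocount of 0.1, with median centring and after the correction (with or without the replicate block), and 6 with the replicate block alone. TPM scaling split the calls over all tested genes into 667 higher and 1622 lower, against 1079 and 1500. No call changed direction under the 15 alternatives. LAMA3 passed in 9 of them, LAMB3 in 11, LAMA5 in 14, COL17A1 in 15, PLEC and CD151 in 4 each, and LAMB1, LAMC1 and DST in none. DST, near 0, ranged from -0.08 to 0.04. Of the 7 pairs, the log2 difference of LAMA3 with LAMB3 was 0.11, but -0.01 without control 3, and that of LAMB1 with LAMC1 was -0.08, but 0.01 without control 3; the other 5 kept their sign in the 4 alternatives run on pairs. Exact tests of 3 against 3 cannot go under 0.1, and isoforms cannot be separated.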
